A study of Homo sapiens with 12 samples.

Results

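The nuclear genes that encode the subunits of the respiratory chain and of the ATP synthase were followed in HK-2, a human cell line immortalised from the epithelium of the proximal kidney tubule. The members were all genes with a probe set (the group of short oligonucleotides that reports 1 transcript on the array) annotated to 1 symbol beginning with NDUFA, NDUFB, NDUFC, NDUFS, NDUFV, UQCR, COX4 to COX8 or ATP5, or equal to SDHA, SDHB, SDHC or SDHD. NDUFAF assembly factors were left out. Where a gene had several probe sets, the one with the highest mean over the 12 arrays stood for it. This gave 82 genes of the 19775 genes on the array, of which 73 exceeded a log2 signal of 4 on at least 3 of the 12 arrays and were tested. The 4 groups were cells exposed to CdCl for 12 h, control cells exposed to the vehicle for 12 h, cells exposed to CdCl for 48 h and vehicle control cells at 48 h, with 3 biological replicates each. All groups were the same line, grown to near confluence in the same insulin-supplemented medium; the labels do not give the CdCl dose. HK-2 is 1 immortalised line, so the replicates are separate cultures of the same cells. The study asked how gene expression in these cells responds to a kidney toxicant early and late in the exposure.

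Complexes I to IV pass electrons from NADH and succinate to oxygen, and all but complex II pump protons across the inner mitochondrial membrane; the ATP synthase (complex V) uses the returning protons to make ATP. A few subunits are made inside the mitochondrion from its own genome, but the members described here are encoded in the nucleus and imported. The proximal tubule of the kidney depends on this pathway for the energy of solute reabsorption, and cadmium is known to accumulate there.

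By complex, 33 members belonged to complex I, 3 to complex II, 6 to complex III, 17 to complex IV and 18 to complex V, and all but 5 of these 77 were tested. The untested ones were COX6B2, COX7A1, COX7B2 and COX8C, which are tissue-restricted isoforms, and ATP5MF, a membrane subunit of the ATP synthase. The symbol rule also took in 5 non-coding or pseudogene entries, of which ATP5MC2P1 was tested. It stayed between 3.92 and 4.41 on all 12 arrays. The other 4 (COX6A1P1, NDUFB2-AS1, NDUFV1-DT and NDUFV2-AS1) were below 4 on every array. Cultured HK-2 cells matched their label in part. The epithelial genes KRT8, KRT18, KRT19 and PAX8 lay between 9.34 and 12.31 on every array, whereas the brush-border genes ANPEP, GGT1 and CUBN stayed between 2.90 and 3.21. Of the markers of other cell types, NPHS1, SLC12A3, PECAM1, VWF, PTPRC and PDGFRB stayed between 2.11 and 3.13, SLC12A1 and AQP2 reached at most 4.28 and 4.56, and COL1A1, a fibroblast collagen, lay between 7.05 and 7.99.

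The promoters of 4 members that the results return to are given first: UQCRC1, NDUFA9 and NDUFV3, which were higher with CdCl at 48 h, and ATP5MC1, which had the largest change over time in control cells. The sequences are from RefSeq (GRCh38.p14), run 5′ to 3′ on the gene's strand from 250 bases before to 50 bases after the annotated start, and cover the proximal promoter and the beginning of the transcript. Capitals mark matches, on either strand, to the NRF1 core motif (G, C, G, C, A, any base, G, C, G, C) or the YY1 motif AAGATGGC.
UQCRC1, chr3:48609597-48609896, minus strand: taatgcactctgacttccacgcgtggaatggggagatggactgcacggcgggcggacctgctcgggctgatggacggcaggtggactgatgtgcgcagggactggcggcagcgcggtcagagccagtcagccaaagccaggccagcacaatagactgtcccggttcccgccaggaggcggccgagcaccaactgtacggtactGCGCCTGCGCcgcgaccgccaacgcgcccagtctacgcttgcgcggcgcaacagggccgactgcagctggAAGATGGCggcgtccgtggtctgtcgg
NDUFA9, chr12:4648864-4649163, plus strand: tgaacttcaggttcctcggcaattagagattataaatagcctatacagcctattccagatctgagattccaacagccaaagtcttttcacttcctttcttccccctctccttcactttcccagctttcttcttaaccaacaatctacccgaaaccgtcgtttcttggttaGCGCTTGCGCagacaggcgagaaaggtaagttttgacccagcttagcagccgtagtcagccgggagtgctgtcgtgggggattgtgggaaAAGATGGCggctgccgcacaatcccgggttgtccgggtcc
NDUFV3, chr21:42893059-42893358, plus strand: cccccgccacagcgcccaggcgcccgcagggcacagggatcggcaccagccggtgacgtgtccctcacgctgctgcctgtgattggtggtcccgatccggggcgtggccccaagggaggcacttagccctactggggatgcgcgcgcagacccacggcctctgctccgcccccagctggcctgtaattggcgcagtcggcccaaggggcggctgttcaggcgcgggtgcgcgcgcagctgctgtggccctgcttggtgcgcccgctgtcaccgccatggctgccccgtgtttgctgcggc
ATP5MC1, chr17:48892537-48892836, plus strand: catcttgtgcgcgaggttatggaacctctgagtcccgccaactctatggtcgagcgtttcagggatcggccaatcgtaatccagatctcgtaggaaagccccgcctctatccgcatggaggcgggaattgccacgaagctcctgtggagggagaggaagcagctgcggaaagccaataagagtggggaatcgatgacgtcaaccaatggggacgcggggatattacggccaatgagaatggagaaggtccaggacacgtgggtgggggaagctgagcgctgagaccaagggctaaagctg
UQCRC1 and NDUFA9 each held 1 NRF1 match, on the opposite strand to that printed, and 1 YY1 match, which did not overlap, and NDUFV3 and ATP5MC1 held no match to these or to the other 2 motifs searched. These were the ETS motif CCGGAAGT and the oestrogen-related receptor site TCAAGGTCA. NRF1, YY1, the ETS factor GABP and the oestrogen-related receptors are known regulators of respiratory genes. Promoters were listed for 63 of the 72 tested protein-coding members. The NRF1 motif was in 15 of them (23.8%), against 14.3% of the promoters of all genes tested and 6.98% of all promoters listed. The ETS motif was in 11 (17.5%), against 10.6% of tested genes and 4.95% of all. The YY1 motif was also in 11 (17.5%), against 6.90% of tested genes and 3.52% of all. The receptor site was in 1 (1.59%), against 0.226% of tested genes and 0.432% of all. A match describes letters in a window and is not a bound site.

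With 12 h of CdCl, most subunit genes shifted slightly downward together, and none was called higher. Of the 73 tested members, 34 (46.6%) were called lower by limma (adjusted p under 0.05, Benjamini-Hochberg over all genes tested) and 0 (0.0%) higher; of all 10683 genes tested, 39.7% were called lower and 16.7% higher. The share lower is therefore near that of all genes. The median log2 change was -0.18 over the members and -0.16 over all tested genes, and 70 of the 73 estimates were below 0. On 53 of the 73 genes (72.6%) all 3 CdCl arrays lay below all 3 control arrays, and on 0 genes above, against 46.6% and 19.8% of all tested genes. No member changed by 2-fold, whereas 4.43% of all tested genes were called at least 2-fold higher and 4.05% at least 2-fold lower. The members were also more alike than genes in general, the SD of the log2 changes being 0.14 over the members and 0.64 over all tested genes. Their signal was stronger too, with a median of 11.61 in control cells at 12 h, against 7.89 over all tested genes. No set of genes of like signal was compared.

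The level of the tested genes moved with this early shift, whereas the median of all probe sets did not separate the groups at 12 h. That median was 3.00, 2.98 and 3.00 on the CdCl arrays and 2.97, 3.01 and 3.03 on the control arrays, below the filter of 4. The median of the tested genes was 7.74 ± 0.04 in CdCl cells and 7.89 ± 0.02 in control cells at 12 h (SD, n = 3 each). The poly-A spike-in probe sets, for bacterial transcripts, were at 7.32 ± 0.00 in CdCl cells and 6.84 ± 0.14 in control cells (SD, n = 3 each); the 3′ minus 5′ difference of beta-actin was 1.74 ± 0.05 and 1.90 ± 0.20, and that of GAPDH -0.02 ± 0.03 and 0.13 ± 0.09, in CdCl and control cells. The part of these in the result was not tested. When each array was centred on the median of the tested genes, a scaling chosen after seeing the data, 8 members were lower and 1 (COX6A2, a muscle isoform near the detection floor) was higher, against 26.4% and 24.4% of all genes. All 8 were among the 34. They were SDHA, ATP5MC1, ATP5MC2, ATP5MC3, ATP5ME, NDUFS7, NDUFV1 and COX5A. The 12 h calls of the other members named in the text did not pass at this scaling. With quantile normalization, in contrast, all 34 members were still called lower, and 7 more were. At that scaling the median change was still -0.13 over all genes, against -0.20 over the members. The share of all genes called lower there was not counted. Each array holds the RNA of a whole culture, so a change in all cells and a change in part of them cannot be told apart.

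**Figure D1:**
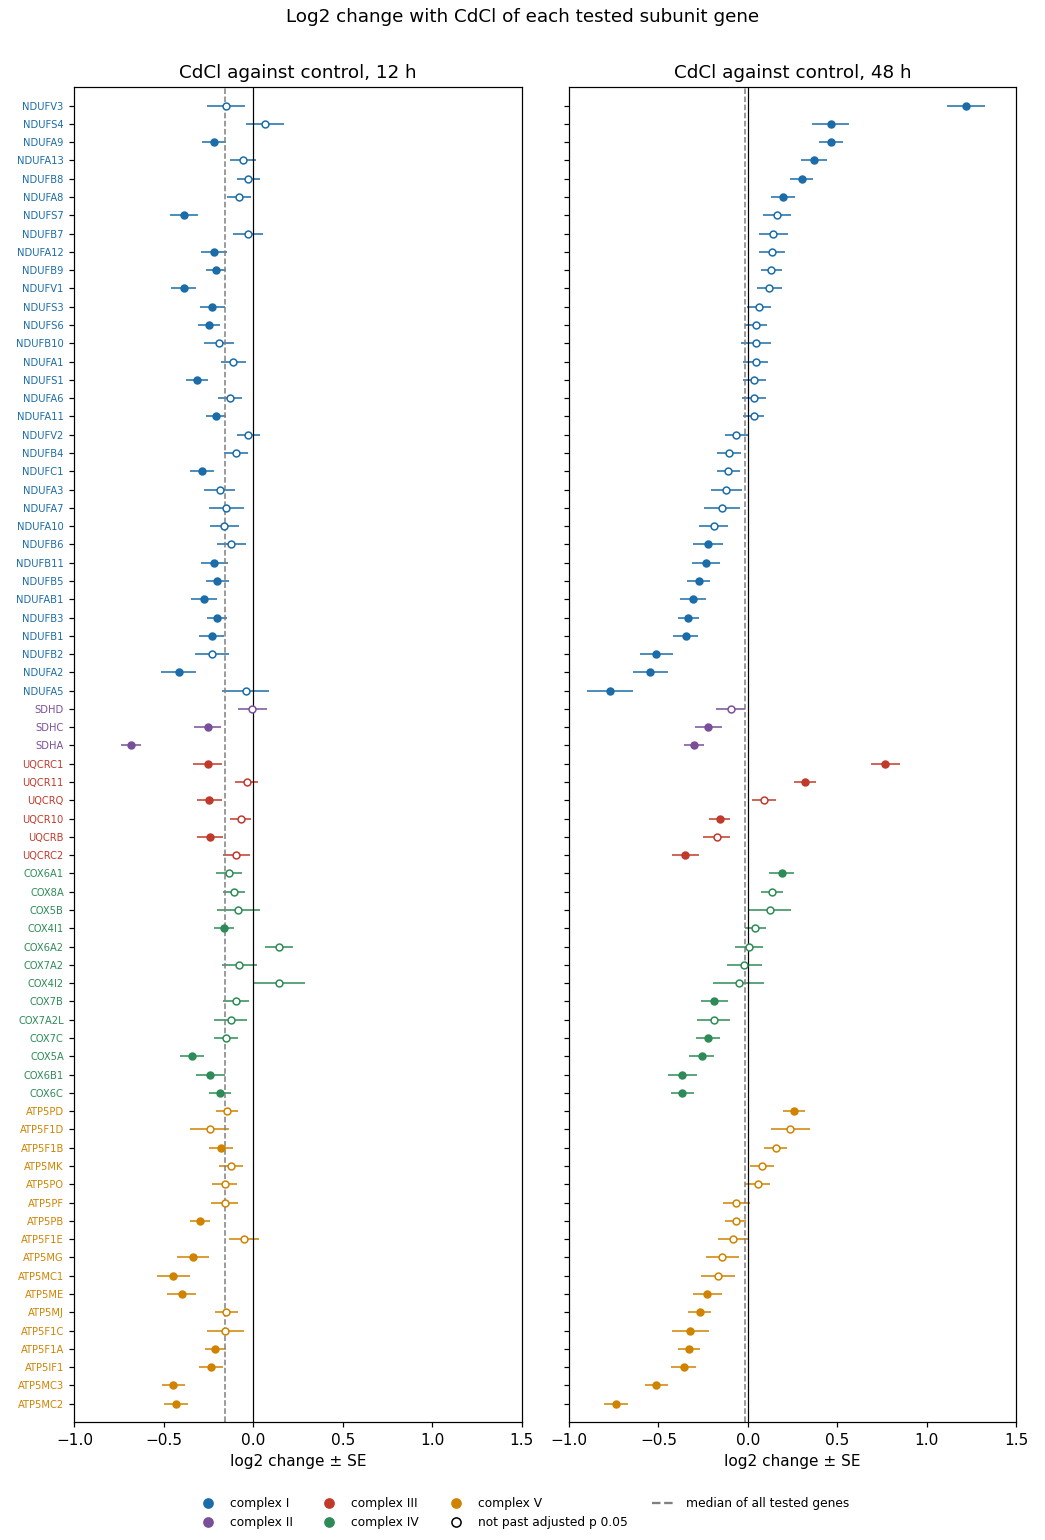
Log2 change with CdCl (horizontal axis) of each tested subunit gene at 12 h on the left and 48 h on the right, as estimate ± SE with 3 arrays a group; colour gives the complex and filled points passed adjusted p 0.05. At 12 h the points lie in a narrow band on the low side, whereas at 48 h they spread from -0.77 (NDUFA5) to 1.22 (NDUFV3).

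By 48 h the uniform shift had given way to a spread in both directions. At this time 10 of the 73 members (13.7%) were called higher and 25 (34.2%) lower, against 26.5% and 28.0% of all tested genes, so fewer members than background were higher and the lower share was near it. The median was -0.08 over the members and -0.02 over all genes. The SD was 0.31 over the members, still below the 0.68 over all tested genes. On 13 genes all CdCl arrays lay above all control arrays, on 26 all lay below, and on 34 the groups overlapped; of all tested genes, 29.1% lay above and 30.9% below. With arrays centred on the median of the tested genes the counts were 10 higher and 20 lower, against 27.9% and 26.5% of all genes, and 29 of these 30 calls were shared with the deposited scale. Of the 34 members lower at 12 h, 16 were lower at 48 h, 2 were higher and 16 were not called, a breakdown not made over all genes. The 2 with opposite calls were NDUFA9 and UQCRC1, whose 12 h values became -0.07 and -0.11 with that centring (limma adjusted p = 0.46 and 0.35).

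The CdCl effect itself was compared between the times by an interaction term, 48 h effect minus 12 h effect. It was called higher for 23 members (31.5%) and lower for 2 (2.74%), against 27.0% and 13.0% of all genes. Of the 10 members higher at 48 h, 9 passed this test in the same direction. The interaction contains the 48 h effect by which these 10 were picked, so the 2 results are not independent. The matching share over all genes was not counted. With arrays centred on the median of the tested genes the counts were 6 and 6, against 17.8% and 18.6% of all genes. Of the 10, NDUFV3, UQCRC1, NDUFA9 and ATP5PD kept the interaction call at that scaling.

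**Figure D2:**
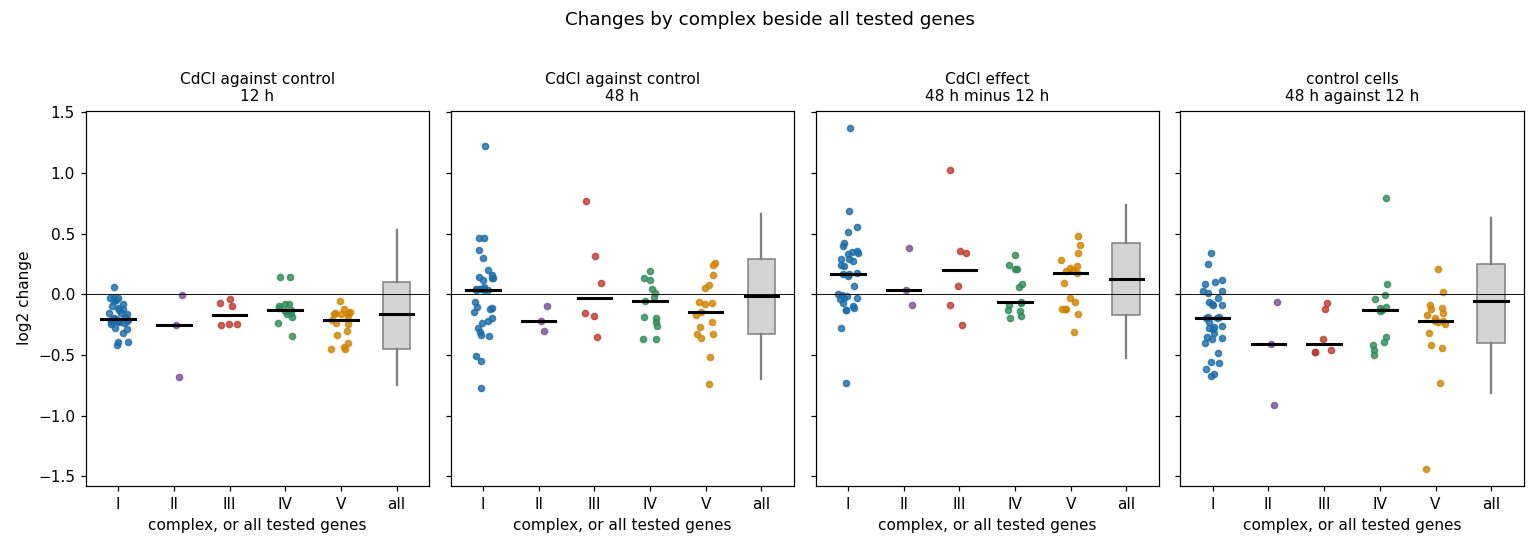
Log2 change (vertical axis) of each tested member by complex in 4 comparisons, with black bars at the medians and, at the right of each panel, a box with whiskers for all tested genes (quartiles, and the 10th and 90th percentiles). At 12 h the complex medians lie between -0.26 (complex II) and -0.13 (complex IV), close to the all-gene median of -0.16.

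Complex I, the NADH dehydrogenase, had the widest range at 48 h (-0.77 to 1.22). It also had the most tested members, and a range tends to widen with the number of genes. The upper end was NDUFV3, by 1 of its 2 probe sets, and the next highest complex I value was 0.46. Of the 33 members of complex I, 0 were higher and 16 lower at 12 h (median -0.20). At 48 h, 6 were higher and 9 lower (median 0.03). These counts stand against 16.7% higher and 39.7% lower among all genes at 12 h, and 26.5% and 28.0% at 48 h. The core subunits carry the flavin and the iron-sulphur clusters. NDUFV1, which binds NADH and the flavin, was at 9.43, 9.45 and 9.43 in CdCl cells and 9.88, 9.73 and 9.88 in control cells at 12 h, and at 9.91, 9.92 and 9.75 in CdCl cells and 9.78, 9.74 and 9.71 in control cells at 48 h. The groups were separate at 12 h and differed by -0.39 ± 0.07 (log2 change ± SE, limma adjusted p = 0.00057). At 48 h the difference was 0.12 ± 0.07 (limma adjusted p = 0.17). NDUFS7, which carries the last iron-sulphur cluster before ubiquinone, fell by 0.39 on the log2 scale at 12 h (limma adjusted p = 0.0013), with 0.16 ± 0.08 at 48 h (limma adjusted p = 0.1). The effects of the 2 times differed by 0.51 ± 0.10 for NDUFV1 and by 0.55 ± 0.11 for NDUFS7 (limma adjusted p = 0.0019 and 0.0024). In all, 4 of the 5 tested core subunits were lower at 12 h and 0 were called at 48 h (lowest limma adjusted p = 0.1). The exception at 12 h was NDUFV2, which carries an iron-sulphur cluster, at -0.03 ± 0.06 (limma adjusted p = 0.73).

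NDUFS1, the largest core subunit, gave conflicting readings. Its chosen probe set fell by 0.32 on the log2 scale at 12 h (limma adjusted p = 0.0013) and gave 0.03 ± 0.06 at 48 h (limma adjusted p = 0.67). Of 2 further tested probe sets, 1 was lower at both times, by 0.37 on the log2 scale at 12 h and by 0.34 at 48 h (limma adjusted p = 0.025 and 0.038). The other changed by 0.61 at 12 h (limma adjusted p = 0.023) and by -0.57 at 48 h (limma adjusted p = 0.031). The direction for NDUFS1 therefore depends on the probe set.

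NDUFV3, a small accessory subunit of the NADH-binding arm, had the largest increase of the members. It was at 8.89, 9.13 and 8.70 in CdCl cells and 7.69, 7.59 and 7.78 in control cells at 48 h. All CdCl arrays lay above all controls. The 2.33-fold difference (1.22 ± 0.10 log2, limma adjusted p = 1.9e-06) was the only member call of 2-fold or more at that time by the chosen probe sets. Of all genes, 4.82% were called at least 2-fold higher and 5.05% at least 2-fold lower. A weaker probe set of ATP5F1C gave -1.22 ± 0.18 at 48 h (limma adjusted p = 0.00014). At 12 h NDUFV3 was at 7.41, 7.45 and 7.43 in CdCl cells and 7.52, 7.73 and 7.49 in control cells, a change of -0.15 ± 0.10 (limma adjusted p = 0.24). The interaction was 1.37 ± 0.15 (limma adjusted p = 5.5e-05). The gene's other probe set, with a weaker signal, gave -0.12 at 48 h (limma adjusted p = 0.65), so the increase was seen by 1 of the 2 probe sets.

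NDUFA9, an accessory subunit of the arm that joins the membrane, was chosen after its values were seen because its calls at the 2 times had opposite directions. At 48 h it was at 10.13, 10.32 and 10.09 in CdCl cells and at 9.72 on each of the 3 control arrays. All CdCl arrays were higher, by 0.46 ± 0.07 (limma adjusted p = 0.00011), and the level on the control arrays was lower than at 12 h, by 0.66 on the log2 scale. At 12 h the CdCl arrays were below the controls, with a change of -0.22 ± 0.07 (limma adjusted p = 0.014). NDUFS4, a small subunit needed for a stable complex, was also higher at 48 h (0.46 ± 0.10, limma adjusted p = 0.0028). NDUFA13, also known as GRIM-19, changed by 0.37 ± 0.07 (limma adjusted p = 0.0012), and NDUFB8, a subunit of the membrane arm, by 0.30 ± 0.06 (limma adjusted p = 0.002). These 3 genes, too, were picked after their values were seen.

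Other complex I subunits were lower at 48 h. NDUFA5, a subunit of the hydrophilic arm, was at 10.73, 10.27 and 10.82 in CdCl cells and 11.26, 11.49 and 11.38 in control cells, a change of -0.77 ± 0.13 (limma adjusted p = 0.00037). The groups did not overlap. At 12 h NDUFA5 differed by -0.04 ± 0.13 (limma adjusted p = 0.8), and its interaction was -0.73 ± 0.18 (limma adjusted p = 0.0088). NDUFA2, another subunit of this arm, was lower at both times, by 0.42 on the log2 scale at 12 h and by 0.55 at 48 h (limma adjusted p = 0.0032 and 0.00055). NDUFB2, a membrane-arm subunit also chosen after seeing its values, fell by 0.51 on the log2 scale at 48 h (limma adjusted p = 0.00065). Of the 11 NDUFB genes, which encode membrane-arm subunits, 1 was higher and 6 were lower at 48 h (median -0.22), against 26.5% and 28.0% of all genes. Of the 8 NDUFS and NDUFV genes, 2 were higher and 0 lower (median 0.09); NDUFS4 and NDUFV3 were the 2. No test of NDUFB genes against the other complex I genes was made.

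**Figure D3:**
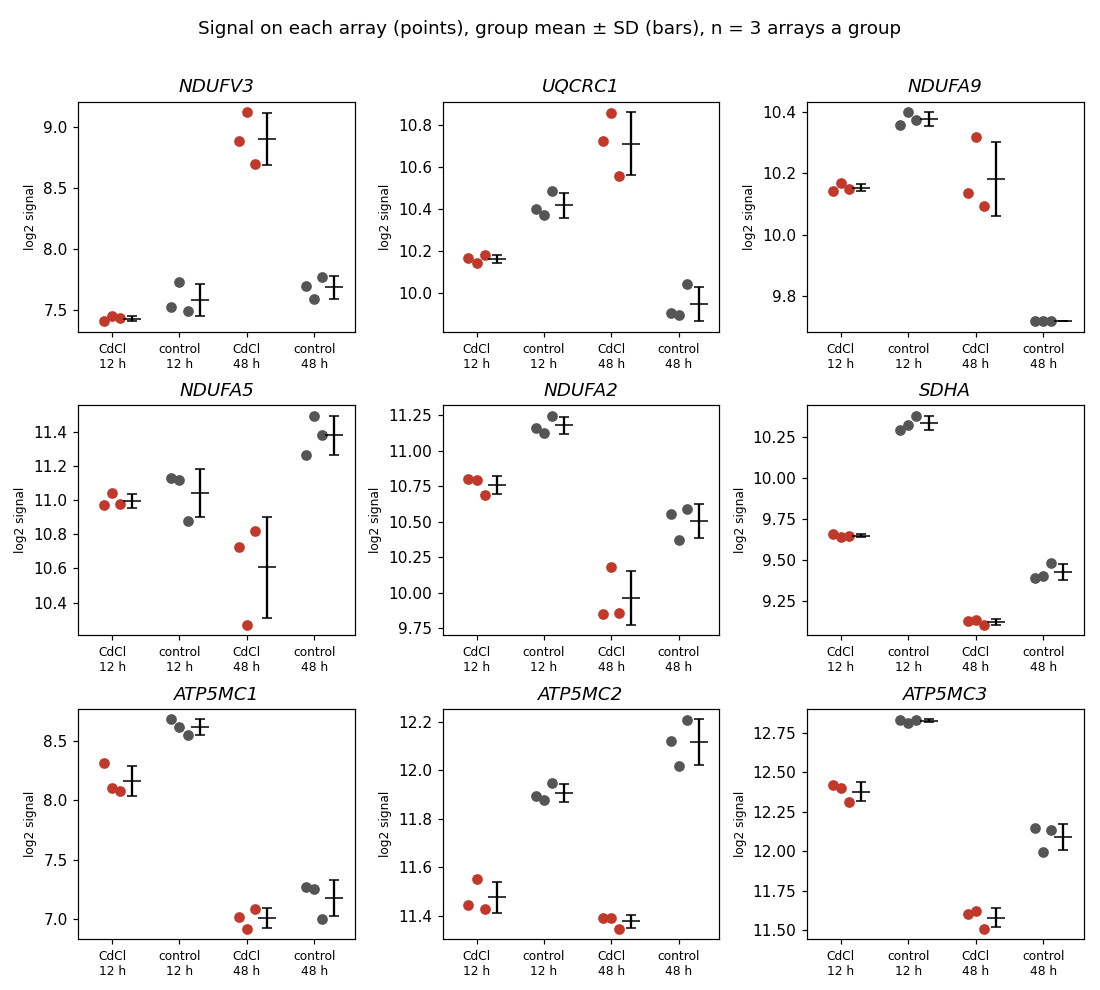
Log2 signal on each array (points) with group mean ± SD (bars, n = 3 arrays) for 9 subunit genes, in each panel CdCl and control at 12 h and then at 48 h; the vertical axes differ between panels. NDUFV3 and UQCRC1 stand above their controls at 48 h, while SDHA, ATP5MC2 and ATP5MC3 stand below at both times.

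Complex II, succinate dehydrogenase, links the citric acid cycle to the chain. SDHA, its flavin-binding catalytic subunit, had the largest decrease of any member at 12 h by the chosen probe sets. Weaker probe sets of ATP5F1C and ATP5IF1 gave -0.94 and -0.79 at 12 h (limma adjusted p = 0.00092 and 4.5e-05). SDHA was at 9.66, 9.64 and 9.65 in CdCl cells and 10.30, 10.33 and 10.38 in control cells, a separation of -0.68 ± 0.06 (limma adjusted p = 1.9e-06). At 48 h it was at 9.13, 9.14 and 9.11 in CdCl cells and 9.39, 9.40 and 9.48 in control cells, a difference of -0.30 ± 0.06 (limma adjusted p = 0.00075). The effect was smaller at 48 h (interaction 0.38 ± 0.08, limma adjusted p = 0.0031, against 0.26 and 0.05 with arrays centred on the median of the tested genes), and the controls themselves were lower at 48 h than at 12 h, by 0.91 on the log2 scale. The probe set is of a type that may also detect similar transcripts. SDHC, a membrane anchor, was called lower at both times by its chosen probe set, by 0.26 and 0.22 on the log2 scale (limma adjusted p = 0.014 and 0.029). The SDHC call at 12 h was lost without CdCl 12 h replicate 1 (-0.20), and at 48 h without CdCl replicate 1 or 2 or control replicate 1 or 3 (-0.18 to -0.23). Averaging its probe sets ended both calls (-0.09 and -0.16, limma adjusted p = 0.35 and 0.11), as did centring on the median of the tested genes (limma adjusted p = 0.29 and 0.054). SDHD, the other anchor, gave -0.01 ± 0.08 and -0.10 ± 0.08 (limma adjusted p = 0.96 and 0.33).

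Complex III, the cytochrome bc1 complex, split by subunit at 48 h, when 2 of its 6 members were higher and 2 were lower, against 26.5% and 28.0% of all genes. UQCRC1, a core subunit of the matrix side, was at 10.72, 10.86 and 10.56 in CdCl cells and 9.90, 9.89 and 10.04 in control cells. All CdCl arrays were higher, by 0.77 ± 0.08 (limma adjusted p = 1e-05), a 1.70-fold difference. At 12 h the order was the opposite, with 10.16, 10.14 and 10.18 in CdCl cells and 10.40, 10.37 and 10.48 in control cells (-0.26 ± 0.08, limma adjusted p = 0.018); without CdCl 12 h replicate 2 or control 12 h replicate 3 the adjusted p was 0.05 or 0.064. The interaction was 1.02 ± 0.11 (limma adjusted p = 6.9e-05). By the chosen probe sets it was the only one besides that of NDUFV3 to be called at 2-fold or more, against 3.92% of all genes higher and 3.47% lower by that rule. Further probe sets of COX7B and NDUFS1 gave interactions of -1.16 and -1.18 (limma adjusted p = 5.7e-05 and 0.0073). UQCRC2, the partner core subunit, went the other way at 48 h, with 10.75, 10.59 and 10.69 in CdCl cells and 11.11, 11.04 and 10.93 in control cells (-0.35 ± 0.08, limma adjusted p = 0.002). UQCR11, a small accessory subunit, was higher by 0.32 ± 0.06 (limma adjusted p = 0.0013). UQCRQ and UQCRB, which help hold the complex together, were lower at 12 h by 0.25 and 0.24 on the log2 scale (limma adjusted p = 0.009 and 0.015) and not called at 48 h (limma adjusted p = 0.28 and 0.064); the UQCRB call was lost without control 12 h replicate 3 (-0.18). It was also lost when probe sets were averaged (-0.06, limma adjusted p = 0.39), 1 further UQCRB probe set reading 0.26 ± 0.13 at 12 h (limma adjusted p = 0.11).

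In complex IV, cytochrome c oxidase, the changes were small by the chosen probe sets. At 12 h, 0 of its 13 tested members were higher and 4 were lower, and at 48 h 1 was higher and 5 were lower; of all genes, 16.7% and 39.7% were higher and lower at 12 h, and 26.5% and 28.0% at 48 h. COX5A, a regulatory subunit, fell by 0.35 on the log2 scale at 12 h and by 0.26 at 48 h (limma adjusted p = 0.0011 and 0.0067). COX6B1, which faces the intermembrane space, was lower by 0.24 and 0.37 on the log2 scale (limma adjusted p = 0.022 and 0.0021). COX6C, a small membrane subunit, was lower by 0.19 and 0.37 (limma adjusted p = 0.025 and 0.00043). COX4I1, the usual form of a regulatory subunit, gave -0.16 ± 0.06 at 12 h (limma adjusted p = 0.028) and 0.04 ± 0.06 at 48 h (limma adjusted p = 0.57). Of these 12 h calls, those of COX6B1 and COX6C were lost without CdCl or control replicate 3 (-0.23 and -0.23; -0.15 and -0.16). That of COX4I1 was lost when probe sets were averaged (-0.12, limma adjusted p = 0.17) and without CdCl replicate 1 or 3 or control replicate 1 or 2 (-0.15 to -0.17). COX5B gave -0.08 ± 0.12 and 0.12 ± 0.12 (limma adjusted p = 0.58 and 0.42). A weaker COX5B probe set gave -0.52 ± 0.09 at 12 h (limma adjusted p = 0.00077), and the others gave -0.0049 and -0.06. A weaker COX7B probe set gave 0.27 ± 0.09 at 12 h and -0.90 ± 0.09 at 48 h (limma adjusted p = 0.021 and 6.2e-06). The chosen COX7B probe set gave -0.10 and -0.19. COX4I2, the hypoxia-responsive isoform of the subunit that COX4I1 encodes, stayed between 4.03 and 4.71 on all arrays.

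In complex V, the ATP synthase, the 3 genes for the c ring were all lower at 12 h. The ring is the rotor that protons turn, and the 3 genes encode the same mature protein behind different import signals. Their median change was -0.45 at 12 h and -0.51 at 48 h. ATP5MC2 was at 11.39, 11.39 and 11.35 in CdCl cells and 12.12, 12.02 and 12.21 in control cells at 48 h. All CdCl arrays lay below the controls (-0.74 ± 0.07, limma adjusted p = 2.8e-06), and at 12 h the change was -0.43 ± 0.07 (limma adjusted p = 0.0002). Its effect was larger at 48 h (interaction -0.31 ± 0.09, limma adjusted p = 0.022; 0.057 without CdCl 12 h replicate 2). ATP5MC3 was at 11.61, 11.62 and 11.51 in CdCl cells and 12.15, 12.00 and 12.13 in control cells at 48 h. It was lower by 0.51 on the log2 scale then, and by 0.45 at 12 h (limma adjusted p = 4.6e-05 and 0.00014). A further probe set of ATP5MC3 gave -0.52 and -0.24. ATP5MC1 was lower at 12 h, at 8.31, 8.11 and 8.08 in CdCl cells and 8.68, 8.62 and 8.55 in control cells (-0.45 ± 0.09, limma adjusted p = 0.0015). At 48 h it was not called (-0.17 ± 0.09, limma adjusted p = 0.15); without control 48 h replicate 3 the change was -0.25 (limma adjusted p = 0.034).

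Among the F1 subunits, which hold the catalytic sites, ATP5F1A fell by 0.21 on the log2 scale at 12 h and by 0.33 at 48 h (limma adjusted p = 0.011 and 0.0007). ATP5F1B gave -0.18 ± 0.07 and 0.16 ± 0.07 (limma adjusted p = 0.032 and 0.062), with a called interaction of 0.34 ± 0.09 (limma adjusted p = 0.013). Its 12 h call was lost without CdCl 12 h replicate 2 or 3 or control 12 h replicate 2 or 3 (-0.14 to -0.19). ATP5IF1, which inhibits the reverse reaction of the enzyme, fell by 0.24 and 0.36 (limma adjusted p = 0.011 and 0.00082). ATP5PD, in the peripheral stalk, was higher at 48 h (0.26 ± 0.06, limma adjusted p = 0.0044, against 0.08 and 0.38 when probe sets were averaged) and was picked after its values were seen. The other probe set in that average was below the signal filter, with group means from 3.13 to 3.35. Over all 17 tested complex V genes, 9 were lower and 0 higher at 12 h, and 7 lower and 1 higher at 48 h. Of all genes, 39.7% were lower and 16.7% higher at 12 h, and 28.0% and 26.5% at 48 h.

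The subunit genes also changed with time in culture, without CdCl. In control cells, 40 of the 73 members (54.8%) were lower at 48 h than at 12 h and 4 (5.48%) were higher, against 33.5% and 23.4% of all tested genes. The median change was -0.20 over the members and -0.06 over all genes. Signs of RNA quality moved with this comparison. The 3′ minus 5′ difference of the beta-actin probe sets was 1.495 ± 0.12 in control cells at 48 h and 1.90 ± 0.20 at 12 h, and that of GAPDH -0.01 ± 0.03 and 0.13 ± 0.09 (log2, SD, n = 3 each). The spike-in probe sets were at 6.40 ± 0.11 at 48 h and 6.84 ± 0.14 at 12 h. Their part in the result was not tested. In CdCl cells, 30 (41.1%) were lower and 14 (19.2%) higher at 48 h than at 12 h, against 27.6% and 34.7% of all tested genes. There the spike-in probe sets were at 6.60 ± 0.53 at 48 h and 7.32 ± 0.00 at 12 h (SD, n = 3 each). In all, 25 members were lower over time both in CdCl cells and in control cells. The share of all genes lower in both was not counted, so this number has no background beside it. On 45 genes all control arrays at 48 h lay below those at 12 h and on 6 all lay above, against 37.1% and 27.4% of all genes. In CdCl cells 34 genes lay below and 20 above, against 30.0% and 38.0%. With arrays centred on the median of the tested genes, 29 members were lower and 4 higher in control cells, against 28.1% and 29.0% of all genes, and 32 lower and 9 higher in CdCl cells, against 30.4% and 31.9%. These 2 time comparisons use the arrays that also give the CdCl effects, so they are not independent of them.

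By the chosen probe sets, the time effect in control cells was called at 2-fold or more for 1 member, lower, against 6.66% of all genes lower and 4.08% higher. Further probe sets of NDUFS1 and UQCRC2 gave 1.40 and 1.26 (limma adjusted p = 0.00011 and 0.014). ATP5MC1 was at 7.27, 7.26 and 7.00 in control cells at 48 h and 8.68, 8.62 and 8.55 at 12 h, a change of -1.44 ± 0.09 (limma adjusted p = 1.5e-07), and in CdCl cells the change was -1.16 ± 0.09. In CdCl cells ATP5MC1 was 1 of the 2 members called at 2-fold or more over time by the chosen probe sets, against 7.74% of all genes lower and 7.32% higher. NDUFV3 was the other (1.48 ± 0.10). Further probe sets of SDHC and COX7B gave -1.12 and -1.02 there (limma adjusted p = 0.0098 and 1.4e-06). COX7A2L, which helps join complexes III and IV into supercomplexes, was the opposite case, at 11.40, 11.26 and 11.61 in control cells at 48 h and 10.62, 10.62 and 10.67 at 12 h (0.79 ± 0.09, limma adjusted p = 1.8e-05). Its change in CdCl cells was 0.73 ± 0.09. Complexes II and III had the lowest medians in control cells over time, each at -0.41.

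**Figure D4:**
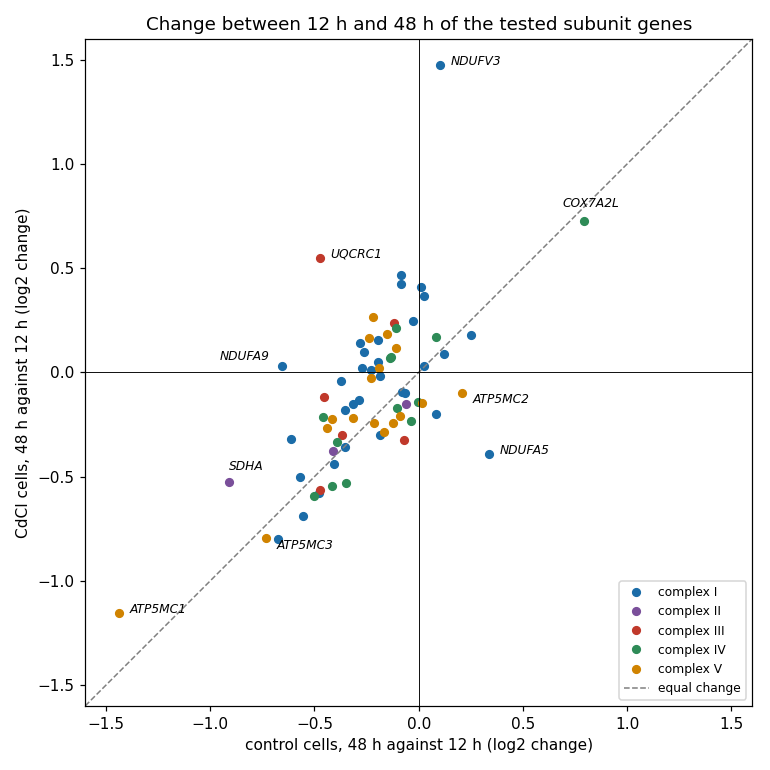
Log2 change from 12 h to 48 h of each tested subunit gene in CdCl cells (vertical axis) against control cells (horizontal axis), coloured by complex, with a dashed line of equal change. NDUFV3, UQCRC1 and NDUFA9 lie above the line, NDUFA5 and ATP5MC2 lie below it, and COX7A2L and ATP5MC1 lie near it at the opposite ends.

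Other genes of the pathway were read from lists of its assembly factors, electron carriers and regulators. Assembly factors, which build the complexes and are not part of them, differed from the subunits at 48 h in their counts. Of 46 tested, 17 (37.0%) were higher and 11 (23.9%) lower at 48 h, against 26.5% and 28.0% of all genes, and at 12 h 4 were higher and 22 lower, against 16.7% and 39.7%. With arrays centred on the median of the tested genes the 12 h counts were 10 and 11, against 24.4% and 26.4% of all genes. The 48 h counts were then 18 and 10, against 27.9% and 26.5%. UQCC1, needed to make the cytochrome b of complex III, was chosen after its values were seen. At 48 h it was at 9.92, 9.94 and 9.86 in CdCl cells and 8.13, 8.34 and 8.34 in control cells. All CdCl arrays were higher, by 1.64 ± 0.09 (limma adjusted p = 5.2e-08), and at 12 h by 1.28 ± 0.09 (limma adjusted p = 5.3e-07). COA6, a copper-linked factor of complex IV, was higher by 0.47 and 0.80 at 12 h and 48 h. NDUFAF1, NDUFAF2 and NDUFAF3, assembly factors of complex I, were higher at 48 h by 0.56, 0.67 and 0.67. These 4 genes were picked after their values were seen.

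Of 15 electron carriers and coenzyme Q genes, 1 was higher and 8 lower at 12 h, and 1 higher and 3 lower at 48 h. Of all genes, 16.7% were higher and 39.7% lower at 12 h, and 26.5% and 28.0% at 48 h. With arrays centred on the median of the tested genes, 1 was higher and 5 were lower at 12 h, against 24.4% and 26.4% of all genes. CYCS, cytochrome c, was the higher one at both times (0.44 ± 0.10 and 0.51 ± 0.10). CYC1, the cytochrome c1 of complex III, gave -0.34 at 12 h (limma adjusted p = 0.014) and 0.14 at 48 h; without control 12 h replicate 1 the 12 h value was -0.26 (limma adjusted p = 0.061), and with the centring -0.19 (limma adjusted p = 0.15). COQ5, a methyltransferase of coenzyme Q synthesis picked after its values were seen, was lower by 1.05 on the log2 scale at 12 h, with -0.14 ± 0.09 at 48 h.

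Of 15 tested regulators of mitochondrial biogenesis, 1 was higher and 9 lower at 12 h, and 2 higher and 4 lower at 48 h, against the same shares of all genes (16.7% and 39.7%, then 26.5% and 28.0%). With the centring, 1 was higher and 7 were lower at 12 h, against 24.4% and 26.4% of all genes. At 48 h the centred counts were 3 and 4, against 27.9% and 26.5%. PPARGC1A, a coactivator of respiratory genes, was called lower at both times, by 0.34 on the log2 scale at 12 h and by 0.83 at 48 h (limma adjusted p = 0.03 and 0.00013). The 12 h call was lost without CdCl replicate 3 or control replicate 1 or 2 (-0.25 to -0.35), with the centring (-0.19, limma adjusted p = 0.17) and under quantile normalization (-0.26, limma adjusted p = 0.057). At 48 h it was at 5.61, 5.25 and 5.29 in CdCl cells and 6.12, 6.39 and 6.12 in control cells. TFAM, which packages and transcribes mitochondrial DNA, was lower by 0.48 and 0.69 on the log2 scale. All 4 of its probe sets were lower at 48 h, and at 12 h the other 3 gave between -0.18 and 0.31. NRF1 was lower at 12 h, by 0.78 on the log2 scale, with 0.07 ± 0.14 at 48 h, and ESRRA gave 0.06 ± 0.08 and 0.00 ± 0.08. Of the 13 mitochondrially encoded subunits, the 4 with a probe set were ND2, ND4, ND6 and ATP6; 1 was higher at 12 h and 1 lower at 48 h, and both calls were of ND6 (0.32 ± 0.13 and -0.48 ± 0.13). At 12 h, quantile normalization gave 0 of the 4 higher, so that the ND6 call was lost. The centring gave 2 higher, against 24.4% of all genes.

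**Figure D5:**
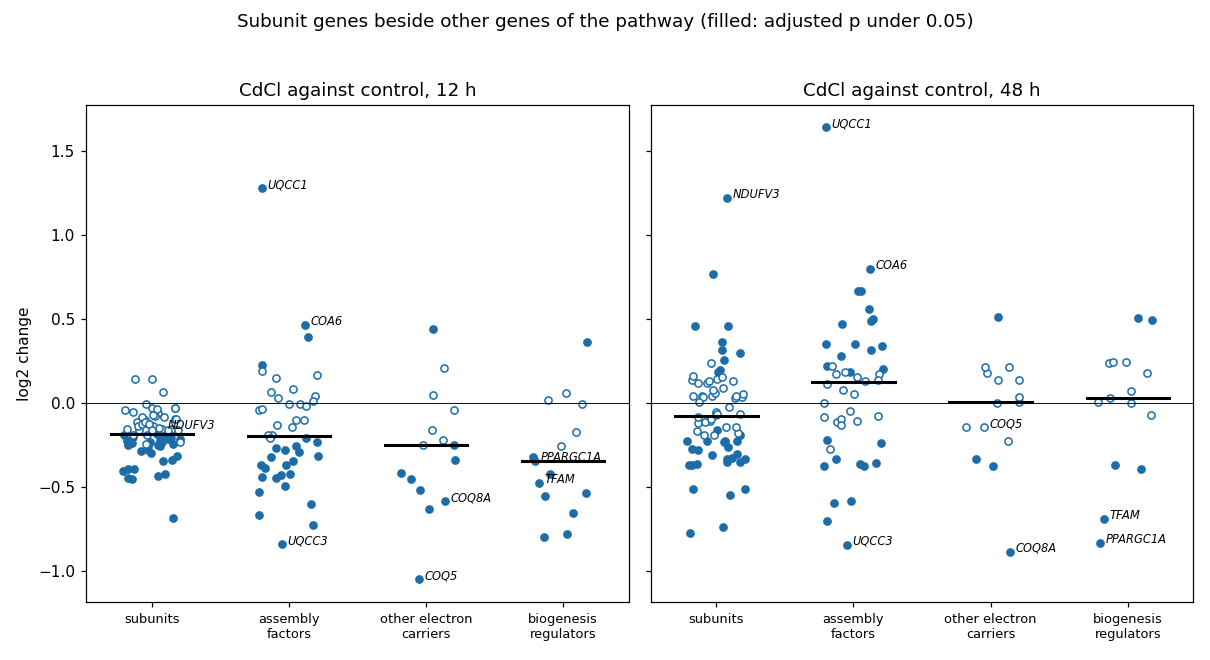
Log2 change with CdCl (vertical axis) of tested subunit genes and of assembly factors, other electron carriers and biogenesis regulators, at 12 h on the left and 48 h on the right; black bars are medians and filled points passed adjusted p 0.05. At 48 h the assembly factors have a median of 0.12 and the subunits of -0.08.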

How the data were processed

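Total RNA from HK-2 cells was hybridised to 12 Affymetrix arrays, 3 per group, and the deposited values are log2 signals that the authors made with GCRMA, per the submitters' processing notes; no version of it was stated. Of 54675 probe sets, 62 were array controls, 41091 carried 1 symbol, 1801 several and 11721 none; names came from GEO's platform annotation. All 82 members matched RefSeq by gene ID. The values hold no counts, so the number of arrays limits precision.

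One limma fit (3.58.1, R 4.3.3) of the 4 group means over all 12 arrays gave every comparison, with Benjamini-Hochberg adjustment over 10683 genes and a threshold of 0.05. Group levels are means ± SD; changes are ± SE. The test was checked on simulated data. Named genes were the 3 largest changes per complex at each time, the 3 largest of the interaction and of control cells over time, and a list of index genes; others are marked. The members, lists and rules were chosen with earlier results of these data known. Alternatives changed the scaling, filter, probe-set summary, variance trend, samples or replicate block. Genes without a probe set of 1 symbol were not analysed here.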

Additional observations from a re-analysis of the deposited data

Results flagged for a closer look

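The CdCl effect at 48 h differed from that at 12 h, by limma's interaction term, for 15 of the subunit genes named in the text. The difference on the log2 scale (48 h effect minus 12 h effect) was 1.37 for NDUFV3, 1.02 for UQCRC1, 0.68 for NDUFA9, 0.55 for NDUFS7 and 0.51 for NDUFV1. It was 0.42 for NDUFA13, 0.40 for ATP5PD, 0.38 for SDHA, 0.36 for UQCR11, 0.35 for NDUFS1, 0.34 for UQCRQ, 0.34 for ATP5F1B and 0.33 for NDUFB8. It was -0.31 for ATP5MC2 and -0.73 for NDUFA5. With arrays centred on the median of the tested genes, the interactions of NDUFV3, UQCRC1, NDUFA9, NDUFS7, NDUFV1, ATP5PD, ATP5MC2 and NDUFA5 still passed the threshold and those of the other 7 did not.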

How the results depend on the processing

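Scaling had the largest effect, and the outcome depended on the method. Quantile normalization kept the 34 calls lower at 12 h and added 7, all lower. The 12 h median was then -0.20 over the members and -0.13 over all genes, and the share of all genes called lower was not counted. With arrays centred on the median of all their probe sets, these medians were -0.17 and -0.15. Centring each array on the median of the tested genes, an alternative added after seeing the data, gave 8 members lower and 1 higher with CdCl at 12 h, interactions called higher for 6 and lower for 6, and 9 members higher in CdCl cells over time. Averaging probe sets gave 5 interactions called lower. Tested separately, 21 further probe sets belonged to members called at 12 h. Of these, 8 were called the same way, 1 the other way and 12 were not called. At 48 h there were 25 such probe sets, of which 16 were called the same way and 9 were not called. Over the settings that left out 1 array, the members called at 12 h ranged from 27 to 36 lower and 0 to 1 higher, and at 48 h from 8 to 11 higher and 17 to 26 lower. The interaction ranged from 16 to 21 higher and 1 to 3 lower, control cells over time from 2 to 4 higher and 36 to 40 lower, and CdCl cells over time from 10 to 15 higher and 25 to 30 lower. Without control 48 h replicate 1, 17 members were lower at 48 h. The lowest counts of 1 and 2 came without CdCl 12 h replicate 2 (interaction lower) and without control 12 h replicate 2 or control 48 h replicate 3 (control cells, higher).

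Averaging probe sets reversed NDUFS1 (0.0504 at 12 h, -0.25 at 48 h, interaction -0.30, control cells over time 0.33), UQCRC2 in control cells over time (0.43, adjusted p 0.021 by limma), COX5A in CdCl cells over time (-0.0144) and ATP5PD in CdCl cells over time (-0.0186). The averages also take in probe sets below the signal filter. The other probe set of COX5A had group means from 3.05 to 3.42, and that of ATP5PD from 3.13 to 3.35. For CdCl against control, and for the interaction of ATP5MC2, the named-gene calls that ended when 1 array was left out are given with the genes. Others ended this way for the interactions of COA6, CYC1, PPARGC1A and UQCC1. So did calls over time of ATP5F1A, ATP5MC2, CYC1, NDUFA5, NDUFS1 and UQCC1 in control cells, and of ATP5F1B, ATP5PD, COX5A and NDUFA5 in CdCl cells. The causes were not tested. Over the genes named, 4353 alternative values kept direction and side of the threshold, 171 fell short of it, 70 newly passed it, 7 reversed and 69 that were not called changed sign.

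Same-numbered CdCl and control arrays of a time did not deviate together (r from -0.06 to -0.00 at 12 h and -0.34 to -0.03 at 48 h). These values gave no sign that the numbers pair the samples. With 3 arrays a group, and each time taken separately, they cannot exclude it. With the replicate block the members called were 0 higher and 32 lower at 12 h, 9 and 22 at 48 h, 18 and 2 for the interaction, 3 and 36 in control cells over time, and 11 and 28 in CdCl cells over time.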

Other observations

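CdCl 48 h replicate 2 stood apart in the spike-in probe sets, at 5.99, against 6.92 and 6.89 on the other 2 CdCl arrays and 6.29, 6.41 and 6.51 on the control arrays at 48 h. Its part in the results was not tested beyond leaving out the array.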
